A study of Mus musculus with 32 samples.

Results

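Intestinal stem cells of Ppara-null mice were compared with those of wild-type mice after high-fat feeding. The comparison rests on 8 of the series' 32 libraries, taken by the group named in the columns of the count table: 4 of the group PparA.HF (genotype label Ppara-null, diet label High Fat) and 4 of WT.HF (Wildtype, High Fat). The other libraries are WT.Con and PparA.Con (the same genotypes on the Control diet) and PparD and PparDA (Ppard-fl/fl, without and with the Ppara-null allele) on both diets. All mice carry the strain label C57BL6. Crypt cells stained for the epithelial surface protein CD326 and with the DNA dye DAPI were sorted for high GFP, and their polyadenylated RNA was counted from the 3' end (digital gene expression). The labels are silent on the reporter behind the GFP, the kind of null allele, the age of the mice and the length of the diet. Whether each library is a separate animal is unstated too, and p-values measure the spread between these samples, which may be technical.

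PPARA is a nuclear receptor that fatty acids activate. It pairs with the retinoid X receptor on direct repeats of a short half-site and raises genes for fatty acid uptake, mitochondrial and peroxisomal β-oxidation and ketone body synthesis. In the intestinal epithelium it works beside PPARD, which binds similar sites, and a high-fat diet supplies ligands for both. The question set by the design is what its loss does to stem cells that are exposed to dietary fat.

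Library totals were 612672 to 724155 counts, and 11683 to 12212 genes had a count. The library numbers form 4 runs of 8 that hold every group once, and all values below are given in the order of runs 1 to 4 (libraries 2, 10, 18 and 25 of WT.HF and 6, 14, 22 and 30 of PparA.HF). Xist, the transcript of the inactive X chromosome, stood at 584 to 788 CPM (counts per 1e+06) in the libraries of runs 1 and 3 and at 0 to 9.7 CPM in those of runs 2 and 4. The Y-linked Ddx3y was at 0 in runs 1 and 3 and at 22.6 to 38.8 CPM in runs 2 and 4. Sex and pair of runs therefore go together, and results are given for each pair. PparA.HF held place 6 of every run, and WT.HF held place 2 in runs 1 to 3 and place 1 in run 4, so genotype and place in the run cannot be told apart. WT.HF and WT.Con trade places in run 4 (libraries 25 and 26), and the labels do not settle whether that was the order or the names were exchanged. Fabp1, a fatty acid binding protein gene, was at 1640 CPM in library 25 and 97.4 CPM in library 26, with 603 to 2160 CPM in the other WT.HF libraries and 144 to 162 CPM in those of WT.Con. The ribosomal protein gene Rps4x was at 5180 CPM in library 25 and 9420 CPM in library 26. It was at 10400 to 11400 CPM in the other WT.HF libraries and 6270 to 6700 CPM in those of WT.Con. The sorted cells carried stem cell markers: the Wnt receptor partner Lgr5 stood at 35.5 to 57.9 CPM and the secreted protein Olfm4 at 9040 to 12300 CPM over the 8 libraries. Ppara itself (ENSMUSG00000022383, chromosome 15, 85734983 to 85802819, mm10) had 1 to 5 counts per library, too few to test and too few to check the genotype labels.

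Of 5872 tested genes, 93 (1.58%) were called at an adjusted p under 0.05 by edgeR's quasi-likelihood test with Benjamini-Hochberg adjustment. In PparA.HF 54 of them (0.92%) were higher and 39 (0.664%) lower. At an unadjusted p under 0.05 the count was 790 (13.5%), and the ranges of the 2 groups did not overlap for 369 genes (6.28%), 63 of the called genes among them. The median log2 fold change of all tested genes was 0.0079. Some called genes, many of them on the chromosome of Ppara or processed pseudogenes, also differed in the other Ppara-null groups. Others were high or low in PparA.HF alone among the 8 groups, and others differed mainly in runs 2 and 4. Leaving out 1 library at a time gave 41 calls without library 10, 43 without 30, 47 without 14, 49 without 18, 50 without 2, 66 without 25, 119 without 22 and 132 without 6. Of the 93 genes 27 kept their call without each of the 8 libraries. Without the term for the run, the pairing of the design, 44 genes were called. Of the genes named below, Chchd2, Churc1, Coq6, Defa27, Defa35, Lgals2, Ly6e, Rps13, Rps13-ps1, Rps15a-ps8, Srprb, mt-Atp8 and mt-Co1 then had an adjusted p of 0.055 to 0.3, and so did Arl6ip1, Fgf1, Ftl1, Gdpd3, Ifitm3, Lsm4, Mrps5, Noc2l, Oxa1l, Rpl5 and Sdc2. The calls of Gm4294, Rpl28-ps1, Rpl31-ps8, Rps12l1 and Rps23-ps1 were lost as well, with 0.51 to 0.84. In bulk RNA fewer cells of a type and less RNA per cell cannot be told apart.

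**Figure D1:**
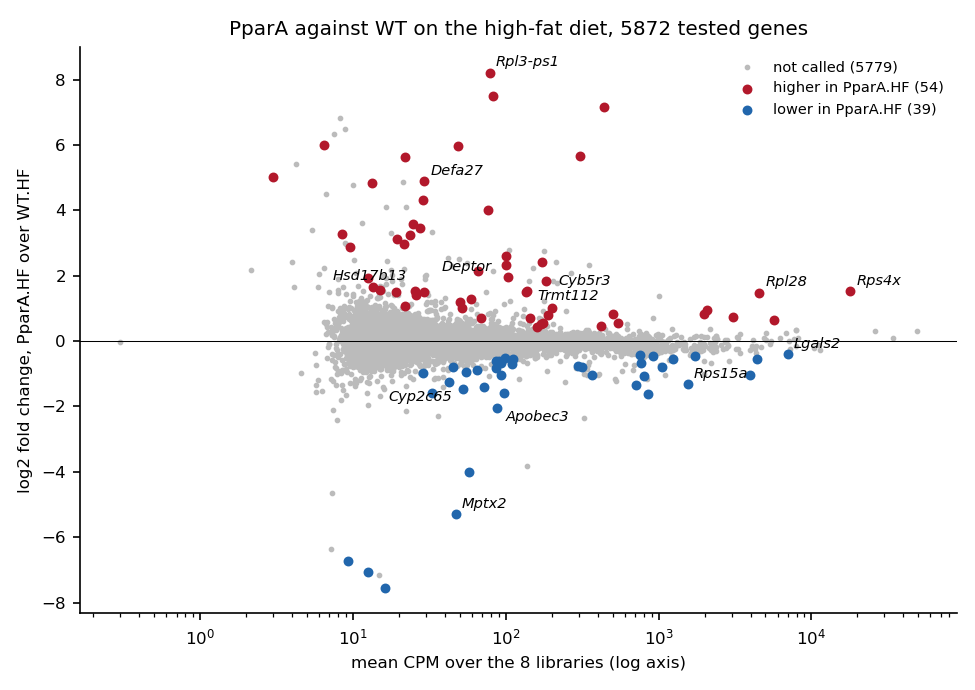
Log2 fold change of PparA.HF over WT.HF against the mean level of each of 5872 tested genes in CPM (log axis), with the 54 called higher in red, the 39 called lower in blue and the rest in grey. Most genes lie near 0, the largest rises include pseudogenes such as Rpl3-ps1 and the defensin gene Defa27, and a gene with no count in the 8 libraries is drawn at the left edge.

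No listed gene of fatty acid breakdown, the best known targets of PPARA, passed the test between PparA.HF and WT.HF. Of the 20 tested genes of mitochondrial fatty acid oxidation none was called by edgeR, DESeq2 or limma and 1 had an unadjusted p under 0.05. In PparA.HF 11 were higher and 9 lower, and their median log2 fold change was 0.03 (0.06 in runs 1 and 3, 0.03 in runs 2 and 4). Cpt1a, which couples fatty acids to carnitine for entry into mitochondria, stood at 35.9, 34.1, 43.9 and 29.8 CPM in WT.HF and at 21.8, 32.3, 56.3 and 43.6 CPM in PparA.HF. The groups overlapped, with a log2 fold change of 0.10 ± 0.33 (SE; adjusted p = 0.93, 95% interval −0.57 to 0.78). Acaa2, the thiolase of the last step, was at 274, 468, 378 and 423 CPM in WT.HF and 316, 404, 558 and 369 CPM in PparA.HF (0.09 ± 0.15, adjusted p = 0.86, interval −0.22 to 0.40). For Hadha, the α subunit of the trifunctional protein, the log2 fold change was 0.30 ± 0.16 (adjusted p = 0.43), and for the long-chain dehydrogenase Acadl it was 0.63 ± 0.36 (adjusted p = 0.46). Both lay above 0 without passing the test.

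Acadvl, the very-long-chain acyl-CoA dehydrogenase, came nearest to a call. It stood at 124, 127, 126 and 187 CPM in WT.HF and at 69.8, 88.8, 121 and 105 CPM in PparA.HF. Every PparA.HF value lay below every WT.HF value, with a log2 fold change of −0.55 ± 0.15 (adjusted p = 0.061, interval −0.86 to −0.24). Without library 22, the highest of PparA.HF, the adjusted p by edgeR was 0.022. Omitting any other of the 8 libraries gave 0.066 to 0.22, leaving out the term for the run 0.18, and DESeq2 0.12. Between PparDA.HF and PparD.HF, which share no library with these groups, Acadvl was called at −1.32 (adjusted p = 4.7e-06), and on the control diet at −0.69 (adjusted p = 0.013) between PparDA.Con and PparD.Con. Of the 20 listed genes 3, Acadvl among them, were called between PparDA.HF and PparD.HF, against 2.32% of all tested genes. The list's median there was −0.25. The plot of fatty acid oxidation genes gives the interval of each member between PparA.HF and WT.HF.

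**Figure D2:**
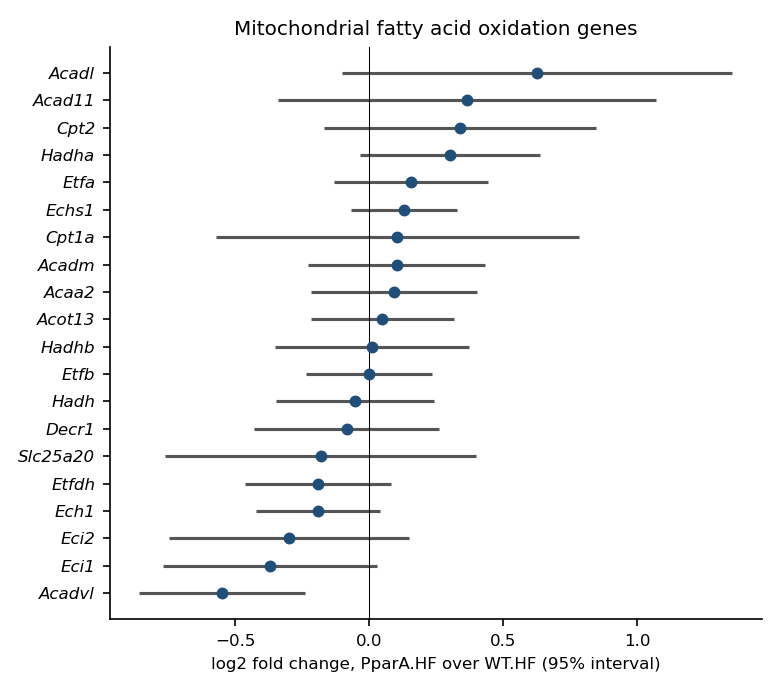
Log2 fold change of PparA.HF over WT.HF (points) with its 95% interval (bars) for the 20 tested genes of mitochondrial fatty acid oxidation, ordered by size. The intervals of all genes but Acadvl, at the bottom, include 0, and those of low genes such as Cpt1a reach from −0.57 to 0.78.

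Over all runs the other PPAR target lists gave no call by edgeR, DESeq2 or limma either, with 1 gene each of the peroxisomal, ketone body and PPAR target lists at an unadjusted p under 0.05. The 17 tested peroxisomal oxidation genes had a median of −0.13, the 6 of ketone body metabolism −0.02 and the 16 PPAR targets outside β-oxidation −0.03. Between PparDA.HF and PparD.HF 1 of the 17, none of the 6 and 2 of the 16 were called, against 2.32% of all tested genes. The lipid droplet coat protein Plin2 differed by 0.12 ± 0.15 (adjusted p = 0.79, interval −0.18 to 0.42) and the lipase inhibitor Angptl4 by −0.09 ± 0.65 (adjusted p = 0.97, interval −1.43 to 1.24). Txnip, an inhibitor of thioredoxin and of glucose uptake on the PPAR target list, stood at 190, 199, 245 and 44 CPM in WT.HF and at 68.3, 66.2, 86.9 and 74.4 CPM in PparA.HF. All PparA.HF values lay below those of WT.HF but for library 25, the lowest of the 8 (−1.17 ± 0.38, adjusted p = 0.13). Within runs 1 and 3 Txnip was called at −1.49 (adjusted p = 0.041), and within runs 2 and 4 its adjusted p was 0.57. Without library 25 its adjusted p over all runs was 0.011, and without any other of the 8 libraries it was 0.15 to 0.37. Pdk4, Acot2 and Ppard were too low to be tested.

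Fabp1 encodes the liver-type fatty acid binding protein and is a direct target of PPARA in liver. It stood at 1230, 2160, 603 and 1640 CPM in WT.HF and at 215, 2060, 586 and 1260 CPM in PparA.HF. Library 6 was the lowest of the 8, library 22 lay just under the range of WT.HF and the other 2 of PparA.HF lay within it, giving −0.52 ± 0.56 (adjusted p = 0.76, interval −1.66 to 0.62). The 250 bases before the start of Fabp1 (chr6:71199629-71199878, plus strand) and of Cpt1a (chr19:3323051-3323300, plus strand) are printed as examples of PPAR targets named above. Both hold the receptor's half-site AGGTCA, as do the windows of Plin2 and Rps4x. They are RefSeq sequences of GRCm38.p6, written 5′ to 3′ with matches in capitals:
Fabp1: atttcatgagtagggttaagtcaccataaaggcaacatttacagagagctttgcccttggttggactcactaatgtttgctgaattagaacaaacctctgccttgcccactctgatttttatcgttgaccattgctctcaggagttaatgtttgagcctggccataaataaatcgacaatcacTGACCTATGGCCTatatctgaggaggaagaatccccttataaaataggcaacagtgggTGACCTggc
Cpt1a: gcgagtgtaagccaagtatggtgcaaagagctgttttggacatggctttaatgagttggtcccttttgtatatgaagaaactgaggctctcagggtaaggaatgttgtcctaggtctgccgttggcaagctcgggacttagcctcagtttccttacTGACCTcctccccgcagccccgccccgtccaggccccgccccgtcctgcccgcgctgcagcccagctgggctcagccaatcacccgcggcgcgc
The direct repeat AGGNCANAGGNCA, searched on both strands, starts at position −67 of Fabp1 in reverse orientation and covers a half-site. A further half-site starts at −9. Cpt1a holds a half-site at −94 and no direct repeat, and so do Plin2 at −218 and Rps4x at −66. Of 32851 windows of this length 111 (0.338%) hold the repeat and 4607 (14%) the half-site. Of 52 called genes with a window none holds the repeat and 6 hold the half-site. A match is a run of letters, not a measured site.

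Chromosome 15 carries Ppara. On it 12 of 218 tested genes (5.5%) were called, 5 higher and 7 lower, against 81 genes (1.43%) on the other chromosomes. Within 10 Mb of Ppara 85 genes were tested, 1 was called higher and 5 lower, and the median log2 fold change of these genes was −0.02. The called genes lay as far as 54.2 Mb from Ppara, and 1 of them, the pseudogene Rpl31-ps8, had its counts mostly in run 1.

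Cyb5r3 (ENSMUSG00000018042, chromosome 15, 83153494 to 83172592), the NADH-cytochrome b5 reductase that supplies electrons to fatty acid desaturation and sterol synthesis, lies 2.58 Mb from the start of Ppara. It stood at 80.4, 78.5, 75.1 and 83.7 CPM in WT.HF and at 238, 268, 298 and 335 CPM in PparA.HF. The groups were far apart, and the log2 fold change was 1.84 ± 0.14 (adjusted p = 6.8e-10), or 3.58-fold. It was 1.78 in runs 1 and 3 and 1.90 in runs 2 and 4 (adjusted p = 8.2e-05 and 0.00011). The group means of the other Ppara-null groups were 283 CPM in PparA.Con, 304 in PparDA.Con and 292 in PparDA.HF, and those of the groups without the null allele were 74.6 to 80.3 CPM.

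Apobec3 (ENSMUSG00000009585, chromosome 15, 79891659 to 79915906), a cytidine deaminase that restricts retroviruses, moved the other way. It stood at 172, 105, 160 and 129 CPM in WT.HF and at 49.4, 30.7, 37 and 17.8 CPM in PparA.HF. Each PparA.HF library was below each WT.HF library, with a log2 fold change of −2.06 ± 0.27 (adjusted p = 1.1e-05). The fall was −1.94 in runs 1 and 3 and −2.26 in runs 2 and 4, and it was called in the 3 other Ppara-null comparisons (−1.76, −1.72 and −2.32).

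Serhl (ENSMUSG00000058586, 83089506 to 83116674), a serine hydrolase-like gene next to Cyb5r3, fell as well. It was at 53.1, 48.9, 79.3 and 58.2 CPM in WT.HF and 18.9, 32.3, 17.7 and 30.7 CPM in PparA.HF, with no overlap (−1.26 ± 0.28, adjusted p = 0.014). The call was lost without library 18 or 22 (adjusted p = 0.079 and 0.05). Tomm22, a receptor of the outer mitochondrial membrane for protein import, was at 86.2, 74.1, 82.2 and 92.3 CPM in WT.HF and 55.3, 45.2, 35.4 and 46.9 CPM in PparA.HF (−0.87 ± 0.15, adjusted p = 0.0012). It was also called on the control diet (−0.64, adjusted p = 0.043). Lgals2, the epithelial lectin galectin-2, lay between 7660 and 8300 CPM in WT.HF and between 5720 and 6640 CPM in PparA.HF and fell by a small amount with little spread (−0.40 ± 0.09, adjusted p = 0.018). Without library 2, 10, 14, 22, 25 or 30 its adjusted p was 0.051 to 0.068.

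Deptor (ENSMUSG00000022419, 55112317 to 55259271), an inhibitory partner of the kinase mTOR, was higher in PparA.HF than in WT.HF. It stood at 33, 50.4, 39.7 and 46.8 CPM in WT.HF and at 94.5, 200, 146 and 218 CPM in PparA.HF, with a log2 fold change of 1.95 ± 0.24 (adjusted p = 5.5e-06). On the control diet the log2 fold change was 0.40 (adjusted p = 0.6), and the difference between the diets, 1.55, passed its own test (adjusted p = 0.036). It was higher as well in PparDA than in PparD on both diets (0.98 and 1.55, adjusted p = 0.026 and 0.00018). Eif3h, a subunit of the translation initiation factor eIF3, stood at 126, 153, 129 and 141 CPM in WT.HF and at 259, 191, 257 and 255 CPM in PparA.HF (0.81 ± 0.15, adjusted p = 0.0028). Its groups did not overlap, and its mean in the other 7 groups was 114 to 155 CPM.

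Cmbl, a hydrolase that activates prodrugs, and Ywhaz, a 14-3-3 adaptor protein, lie 54.2 and 49 Mb from Ppara. Cmbl was at 27.3, 44.5, 34 and 31.2 CPM in WT.HF and 32, 92, 127 and 87.3 CPM in PparA.HF, so that library 6 alone lay within the range of WT.HF (1.28 ± 0.29, adjusted p = 0.017). Without library 2, 14, 18, 22, 25 or 30 the adjusted p was 0.051 to 0.08. Ywhaz stood at 158, 135, 144 and 126 CPM in WT.HF and 156, 255, 175 and 242 CPM in PparA.HF (0.55 ± 0.13, adjusted p = 0.024). Its difference was 0.13 in runs 1 and 3 and 0.94 in runs 2 and 4, and omitting library 10, 14, 25 or 30 ended the call (adjusted p = 0.11 to 0.17). Both genes were called in the 3 other Ppara-null comparisons, Cmbl at 1.77, 1.55 and 2.03 and Ywhaz at 1.01, 0.96 and 1.04.

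Ly6e, an interferon-induced surface protein, and Sdc2, the heparan sulfate proteoglycan syndecan-2, complete the protein-coding calls of the chromosome. Ly6e was at 438, 492, 630 and 372 CPM in WT.HF and 122, 371, 175 and 309 CPM in PparA.HF (−1.04 ± 0.26, adjusted p = 0.032). It fell by 1.84 on the log2 scale in runs 1 and 3 (adjusted p = 0.00039) and was at −0.33 in runs 2 and 4 (adjusted p = 0.45), a difference of 1.50 that passed its test (adjusted p = 0.025). Its call was lost without library 2, 6, 10, 18, 22 or 30 (adjusted p = 0.051 to 0.15). Sdc2 stood at 37.3, 38.5, 43.9 and 34.1 CPM in WT.HF and 32, 8.07, 20.9 and 16.2 CPM in PparA.HF (−0.99 ± 0.26, adjusted p = 0.044). Without library 2, 10, 14, 18, 22, 25 or 30 its adjusted p was 0.066 to 0.24, and by DESeq2 it was 0.13.

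**Figure D3:**
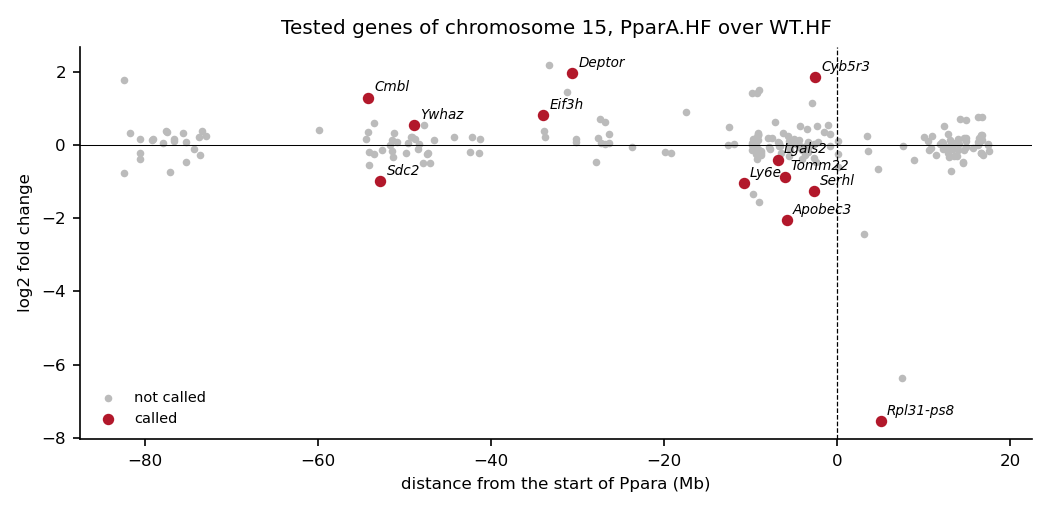
Log2 fold change of PparA.HF over WT.HF for the 218 tested genes of chromosome 15 against the distance of each gene's start from that of Ppara in Mb, with the 12 called genes in red and named. Called genes lie on both sides of 0 and reach 54.2 Mb from Ppara, with many uncalled genes between them.

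A set of genes stood apart in PparA.HF from every other group, the other Ppara-null groups included. Trmt112 (ENSMUSG00000038812, chromosome 19, 6909698 to 6911049), the partner that activates several RNA and protein methyltransferases, stood at 67.5, 63.7, 69.4 and 85.2 CPM in WT.HF and at 237, 176, 208 and 197 CPM in PparA.HF. The rise was 1.52 ± 0.15 on the log2 scale (adjusted p = 7.2e-08), 1.70 in runs 1 and 3 and 1.35 in runs 2 and 4. The means of the other 7 groups were 65.1 to 72.3 CPM. The effect exceeded that on the control diet by 1.49 (adjusted p = 0.0004) and that between PparDA.HF and PparD.HF by 1.43 (adjusted p = 0.0012).

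Hint1 (ENSMUSG00000020267, chromosome 11, 54866383 to 54870501), a histidine triad hydrolase, had the same pattern at a smaller size. It was at 425, 357, 323 and 358 CPM in WT.HF and 579, 588, 700 and 714 CPM in PparA.HF (0.83 ± 0.10, adjusted p = 5.5e-06), and at means of 348 to 391 CPM in the other 7 groups. The differences from the control diet and from the Ppard-fl/fl background were 0.79 and 0.80 (adjusted p = 0.0076 and 0.0089). The X-linked ribosomal protein gene Rps4x (chromosome X, 102184941 to 102189394) was at 10600, 10400, 11400 and 5180 CPM in WT.HF and 23800, 23100, 30700 and 28900 CPM in PparA.HF. It rose by 1.52 ± 0.16 (adjusted p = 4.3e-07), and the same differences were 1.53 and 1.51 (adjusted p = 0.0004 and 0.0012). Its mean in the other 7 groups was 7230 to 13900 CPM. Library 25, at 5180 CPM, is the WT.HF library at place 1 of its run.

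Place in the run could be set against group in the wild-type libraries alone, where the trade of places in run 4 leaves 1 library a group for it. The differences of place 2 from place 1 are therefore given as values, without a test. On the log2 scale they were 0.79 for Rps4x, 0.79 for Rps15a, 1.31 for Rpl14, 2.19 for Clta, −0.16 for Trmt112 and 0.09 for Hint1. No other group held place 6, where PparA.HF stood, and the part of place in these results was not tested. Clta, the clathrin light chain, was among the 93 and lost its call without library 2, 6, 10, 14, 18 or 30 (adjusted p = 0.054 to 0.15) and by limma (adjusted p = 0.093).

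**Figure D4:**
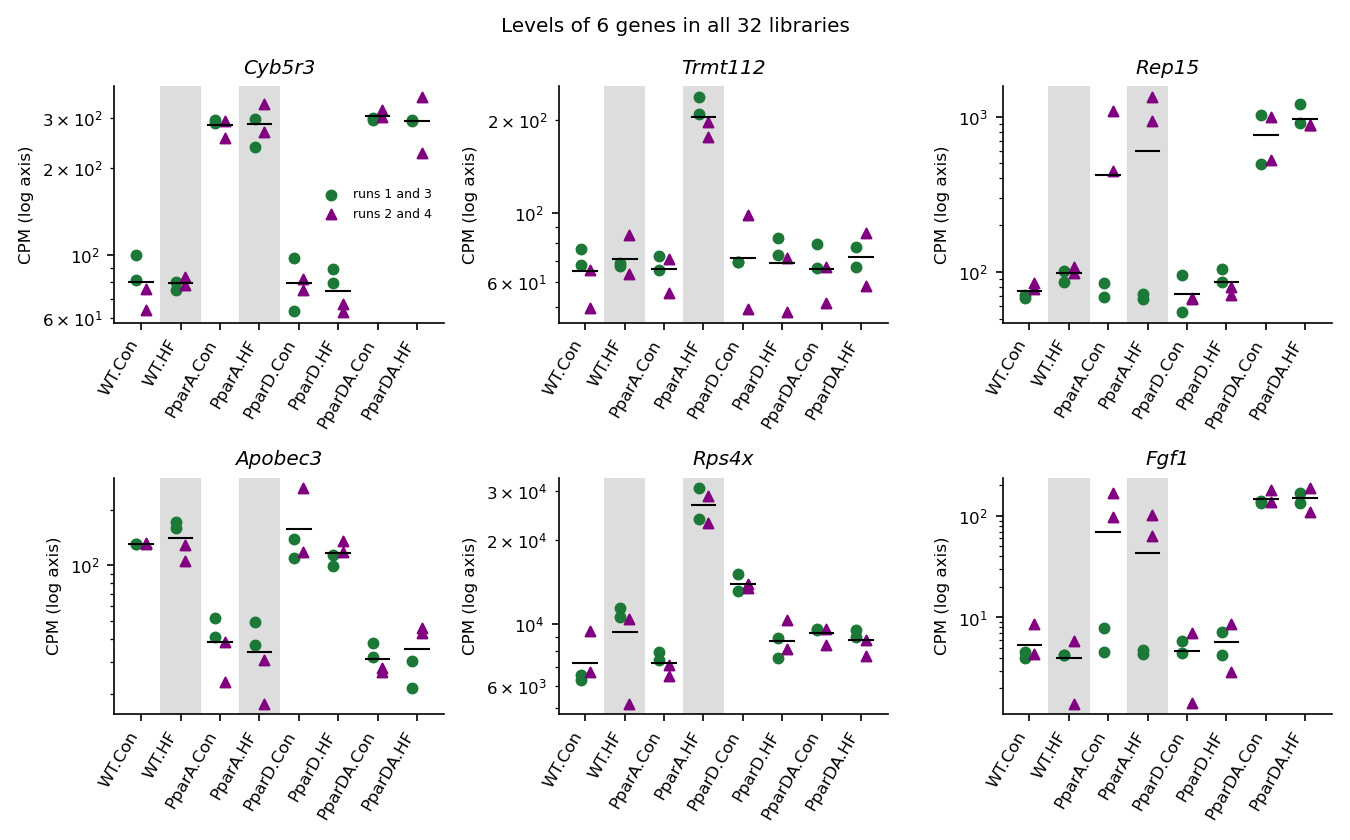
Levels in CPM (log axes) of 6 genes in all 32 libraries by group, with circles for runs 1 and 3, triangles for runs 2 and 4, bars for group means and grey bands for WT.HF and PparA.HF. Cyb5r3 and Apobec3 differ in all 4 Ppara-null groups, Trmt112 and Rps4x in PparA.HF, and Rep15 and Fgf1 in the triangles of the PparA groups and in all PparDA libraries.

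The genotype effect on the high-fat diet minus that on the control diet was called for 22 genes (0.375%), 17 of them among the 93. Rpl28, a protein of the large ribosomal subunit, stood at 1910, 2680, 3110 and 1800 CPM in WT.HF and at 4230, 5940, 9320 and 7400 CPM in PparA.HF (1.48 ± 0.13, adjusted p = 1e-08). On the control diet it was lower in PparA than in WT (−0.76, adjusted p = 0.0011), so that the difference between the diets was 2.24 (adjusted p = 5.8e-09). The called pseudogene Rpl28-ps1 is identical to the transcript of Rpl28 at 414 of 414 bases, and the split of counts between gene and copy was not tested. Wapl, which releases cohesin from chromosomes, was at 12.9, 20.7, 8.5 and 18.5 CPM in WT.HF and 32, 53.3, 45 and 42 CPM in PparA.HF (1.50 ± 0.29, adjusted p = 0.004; difference between diets 1.89). The Golgi protein Golga1 rose by 1.09 ± 0.27 (adjusted p = 0.038; difference 1.76), a call lost without any library but 6 (adjusted p = 0.055 to 0.19) and by DESeq2 (adjusted p = 0.13).

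Other genes were lower in PparA.HF than in WT.HF, and this genotype effect differed from that on the control diet. Cox6a1, a subunit of cytochrome c oxidase, was at 323, 495, 364 and 321 CPM in WT.HF and 247, 241, 199 and 179 CPM in PparA.HF (−0.78 ± 0.16, adjusted p = 0.0068; difference between diets −1.02). Coq6, a monooxygenase of ubiquinone synthesis, stood at 80.4, 176, 103 and 63.9 CPM in WT.HF and 37.8, 48.4, 45 and 22.6 CPM in PparA.HF (−1.41 ± 0.34, adjusted p = 0.029; difference −2.45). Its call was lost without library 10, 14, 18 or 30 (adjusted p = 0.11 to 0.14). Chchd2, a regulator of oxidative phosphorylation, was called at −0.61 ± 0.15 (adjusted p = 0.031; difference −1.03), which was lost without any library but 14 (adjusted p = 0.053 to 0.12) and by DESeq2 (0.071). Anp32a, an inhibitor of protein phosphatase 2A, fell by 0.82 on the log2 scale (adjusted p = 0.0078; difference −1.22), and Rab25, a GTPase of epithelial recycling endosomes, by 0.68 (adjusted p = 0.0078; difference −1.03). Anp32a lost its call without library 10 or 14 (adjusted p = 0.066 and 0.063) and Rab25 without library 10 (0.061). Rab25 ranged over 69.5 to 72.7 CPM in PparA.HF and 99.4 to 141 CPM in WT.HF.

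The respiratory chain, which makes ATP, was described by its nuclear and its mitochondrial genes. Of 78 tested nuclear-encoded genes of oxidative phosphorylation 62 were lower and 16 higher in PparA.HF, with a median of −0.11, and Cox6a1 alone was called by edgeR. Among 13 protein-coding mitochondrially encoded transcripts 2 were called higher, mt-Atp8 (1.03 ± 0.15, adjusted p = 4.3e-05) and mt-Co1 (0.55 ± 0.13, adjusted p = 0.02), and the list's median was 0.10. Over the whole mitochondrial chromosome, with genes outside this list, 3 of 15 tested genes were called. mt-Atp8, a subunit of ATP synthase, stood at 194, 116, 118 and 95.1 CPM in WT.HF and at 429, 237, 187 and 220 CPM in PparA.HF, higher in PparA.HF within each run. mt-Co1 lost its call without library 2, 10, 14 or 30 (adjusted p = 0.056 to 0.12). Mrps5 was the call among 73 mitochondrial ribosomal proteins (−0.55 ± 0.14, adjusted p = 0.032; list median −0.05), lost without library 2, 6, 10, 14, 18 or 30 (adjusted p = 0.062 to 0.15) and by DESeq2 (0.071).

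Cytosolic ribosomal protein genes, which encode the subunits of the ribosome, were called in both directions. Of 81 tested 4 were called higher and 6 lower, against 0.92% and 0.664% of all tested genes. In the list 67 lay below 0, and the median log2 fold change was −0.24. Rpl28, Rps4x and Rps26 were among those that rose. Rps26 was at 1250, 1720, 1420 and 1320 CPM in WT.HF and 2450, 2410, 2780 and 2420 CPM in PparA.HF (0.83 ± 0.11, adjusted p = 7.1e-06). It was higher in PparA.Con than in WT.Con as well (0.85, adjusted p = 1.3e-05) but was at 0.00 between PparDA.HF and PparD.HF, a difference of 0.82 (adjusted p = 0.0089). The 6 that fell were Rps13, Rps15a, Rpl14, Rps25, Rplp0 and Rpl5. Rpl14 fell by 1.04 on the log2 scale (adjusted p = 0.03) and the other 3 by 0.47 to 0.55. Without library 10 or 30 none of these 4 was called (adjusted p = 0.051 to 0.13). Without library 14 or 18 Rpl14, Rplp0 and Rpl5 were lost (0.067 to 0.2), without 2 Rpl14 and Rpl5 (0.069 and 0.081), and without 6 or 25 Rpl5 (0.077 and 0.064).

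Rps15a stood at 2090, 2750, 2470 and 1520 CPM in WT.HF and at 894, 970, 1020 and 663 CPM in PparA.HF (−1.31 ± 0.21, adjusted p = 0.00042). Rps13 was at 1090, 1730, 1170 and 1100 CPM in WT.HF and 240, 625, 602 and 239 CPM in PparA.HF (−1.61 ± 0.34, adjusted p = 0.01), a call lost without library 30 (adjusted p = 0.066). Both were lower in PparA.HF in every run. Pseudogene copies of the same 2 genes were higher in PparA.HF. Rps13-ps1 was at 136, 0, 0 and 12.8 CPM in WT.HF and 852, 505, 376 and 556 CPM in PparA.HF, and Rps15a-ps8 at 1.44, 2.96, 2.83 and 0 CPM in WT.HF and 126, 54.9, 72.4 and 129 CPM in PparA.HF. Rps13-ps1 matched its parent's transcript at 99.6% of 522 aligned bases and Rps15a-ps8 at 92.2% of 387. Whether counts were split between gene and copy was not tested. Rps13-ps1 lost its call without library 2, 10, 18 or 30 (adjusted p = 0.054 to 0.066) and Rps15a-ps8 without library 2, 10 or 18 (0.051 to 0.11).

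Over all tested genes 1.58% were called, 0.92% higher. Of 69 tested processed pseudogenes, copies of mRNAs that lack introns, 16 were called, 13 of them higher. The smallest p of the comparison belonged to one, Rpl3-ps1 (chromosome X, 13202571 to 13203780), with 1 count in the 4 WT.HF libraries and 352, 93.6, 106 and 72.7 CPM in PparA.HF (adjusted p = 3.6e-13). It was called in all 4 Ppara-null comparisons and is identical to the transcript of Rpl3 at 1208 of 1210 bases. Rps26-ps1, at 99.1% identity to Rps26, rose by 0.95 ± 0.12 (adjusted p = 6.8e-06), beside the rise of Rps26. For 5 called genes most counts came from run 1 (Gm4294, Rpl28-ps1, Rpl31-ps8, Rps12l1 and Rps23-ps1), and DESeq2 and limma called none of these (adjusted p = 0.58 to 0.99). Without ribosomal protein genes and processed pseudogenes 48 genes were called, 26 higher and 22 lower.

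Enzymes that handle lipids and foreign compounds gave 1 rise and 1 fall among 21 tested, against 1.58% of all tested genes called. Of the 21, 8 had an unadjusted p under 0.05, against 13.5% of all tested genes. The list's median was 0.48, with −0.14 in runs 1 and 3 and 0.69 in runs 2 and 4. Cyp2c65 (ENSMUSG00000067231, chromosome 19, 39061015 to 39093944), a cytochrome P450 that oxidises arachidonic acid, fell. It stood at 94.8, 80, 56.7 and 78.1 CPM in WT.HF and at 33.4, 30.7, 11.3 and 37.2 CPM in PparA.HF. The ranges did not overlap, and the log2 fold change was −1.46 ± 0.26 (adjusted p = 0.0014), −1.73 in runs 1 and 3 and −1.20 in runs 2 and 4. It was lower as well in PparDA than in PparD on the high-fat and the control diet (−1.31 and −1.59, adjusted p = 0.0044 and 0.0015) and at −0.41 between PparA.Con and WT.Con (adjusted p = 0.6). Its neighbour Cyp2c66 was too low to test.

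Hsd17b13 (ENSMUSG00000034528, chromosome 5, 103955440 to 103977410), a lipid droplet enzyme that acts on retinol and steroids, rose. It was at 8.62, 20.7, 8.5 and 14.2 CPM in WT.HF and 33.4, 61.4, 22.5 and 35.6 CPM in PparA.HF (1.54 ± 0.38, adjusted p = 0.034). The lowest PparA.HF library lay just above the highest of WT.HF. Omitting library 2, 14, 18, 25 or 30 ended the call (adjusted p = 0.065 to 0.24). On the control diet it was called at 2.04 (adjusted p = 0.0024). The 250 bases before both genes are printed because these were the only called members of their list, with Hsd17b13 on the minus strand (chr5:103977389-103977638) and Cyp2c65 on the plus strand (chr19:39060756-39061005), from RefSeq for GRCm38.p6 with half-sites in capitals:
Hsd17b13: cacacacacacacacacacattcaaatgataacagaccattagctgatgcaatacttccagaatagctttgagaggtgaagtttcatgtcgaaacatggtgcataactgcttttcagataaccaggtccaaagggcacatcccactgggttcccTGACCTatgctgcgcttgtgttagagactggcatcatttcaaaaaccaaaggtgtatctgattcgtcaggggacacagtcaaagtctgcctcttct
Cyp2c65: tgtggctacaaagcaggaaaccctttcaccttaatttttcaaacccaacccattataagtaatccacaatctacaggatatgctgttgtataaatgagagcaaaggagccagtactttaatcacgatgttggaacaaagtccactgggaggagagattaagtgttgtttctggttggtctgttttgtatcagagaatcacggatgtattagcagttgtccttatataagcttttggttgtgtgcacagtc
Hsd17b13 holds 1 half-site, at position −96 and in reverse orientation, and Cyp2c65 holds neither the half-site nor the direct repeat.

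Asah1, Gdpd3 and Lamp1 were called outside the gene lists. Asah1, the lysosomal acid ceramidase, fell from 90.5, 65.2, 82.2 and 52.5 CPM to 49.4, 46.8, 24.1 and 27.5 CPM (−0.96 ± 0.22, adjusted p = 0.019). Its call was lost without library 2, 18, 22 or 30 (adjusted p = 0.068 to 0.089). Gdpd3, a phosphodiesterase of lysophospholipids, was at 0 to 4.45 CPM in WT.HF and 11.3 to 29.1 CPM in PparA.HF (2.87 ± 0.74, adjusted p = 0.042), from 6 and 43 counts. It too was lost without library 2, 10, 14, 18, 25 or 30 (adjusted p = 0.058 to 0.26), by DESeq2 (0.064) and by limma (0.094). Lamp1, a lysosomal membrane protein, rose by 1.50 ± 0.38 (adjusted p = 0.036), with 0.27 in runs 1 and 3 and 2.33 in runs 2 and 4, and was lost without library 2, 10, 14, 18, 25 or 30 (adjusted p = 0.066 to 0.32), by DESeq2 (0.054) and by limma (0.067).

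Several genes of other functions fell. The ribosome biogenesis factor Noc2l fell by 1.60 on the log2 scale (adjusted p = 0.042; 0.05 to 0.22 on removal of any 1 of the 8 libraries), and the spliceosome protein Lsm4 by 1.34 (adjusted p = 0.044). Lsm4 ranged over 816 to 1420 CPM in WT.HF and 90.5 to 749 CPM in PparA.HF and lost its call without any library but 6 (adjusted p = 0.05 to 0.17). Srprb, a subunit of the signal recognition particle receptor, fell by 0.79 (adjusted p = 0.02; 0.052 to 0.12 without library 10, 14, 18, 25 or 30, 0.092 by DESeq2). Arl6ip1, which shapes the endoplasmic reticulum and lies next to Rps15a on chromosome 7, fell by the same 0.79 (adjusted p = 0.044; 0.058 to 0.26 without any library but 22). The zinc ribbon gene Churc1 fell by 1.04 (adjusted p = 0.015) and also in PparA.Con and PparDA.HF (−1.30 and −1.01, adjusted p = 0.0024 and 0.015). Churc1 was at 95.1 to 148 CPM in WT.HF and at 113, 48.4, 43.4 and 42 CPM in PparA.HF, with library 6 inside the range of WT.HF, and lost its call without library 10, 14, 22 or 30 (adjusted p = 0.051 to 0.071).

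Il18, a cytokine made by the epithelium, was between 4.26 and 5.75 CPM in WT.HF and rose to 11.6, 25.8, 12.9 and 29.1 CPM (1.92 ± 0.40, adjusted p = 0.0078). All 4 PparA.HF libraries were higher than all of WT.HF. Omitting library 10 or 30 ended the call (adjusted p = 0.052 and 0.059). Of 12 tested interferon response genes 1 was called, the antiviral membrane protein Ifitm3 (−0.79 ± 0.21, adjusted p = 0.044; 0.06 to 0.26 without library 2, 10, 14, 18, 25 or 30), and the median was −0.18. The iron store Ftl1 was the call among 20 NRF2 and antioxidant genes (−0.67 ± 0.17, adjusted p = 0.042; 0.06 to 0.23 without library 6, 10, 14, 18 or 30), with a list median of 0.00. Among 14 genes of MHC class I and the immunoproteasome H2-Bl was called higher (4.33 ± 1.07, adjusted p = 0.032), at 137 and 82.4 CPM in runs 2 and 4 of PparA.HF and 0 in runs 1 and 3. Of these 14 genes 9 were lower and 6 had an unadjusted p under 0.05, against 13.5% of all tested genes, with a list median of −0.19. H2-Bl lost its call without library 2, 10, 14, 18, 25 or 30 (adjusted p = 0.066 to 0.25) and by limma (adjusted p = 0.48). None of the 7 MHC class II genes was called by edgeR, DESeq2 or limma (median −0.24).

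Paneth cell genes, secreted products of the cells beside the stem cells, varied widely between libraries. Their summed level was 51500, 16300, 7790 and 21300 CPM in WT.HF and 8630, 36500, 6530 and 40900 CPM in PparA.HF. The list's median was −0.37 over all runs, −1.96 in runs 1 and 3 and 1.02 in runs 2 and 4. Of 22 tested members 2 were called higher and 1 lower, against 0.92% and 0.664% of all tested genes. Defa27, an α-defensin, stood at 0, 4.45, 1.42 and 1.42 CPM in WT.HF and at 0, 92, 27.3 and 107 CPM in PparA.HF (4.89 ± 0.54, adjusted p = 6.1e-06; 0.055 by limma). It was called in all 4 Ppara-null comparisons, as was Defa35 (3.45 ± 0.71, adjusted p = 0.0074), whose call was lost without library 10 or 25 (adjusted p = 0.073 and 0.13), by DESeq2 (adjusted p = 0.52) and by limma (0.12). Mptx2, a pentraxin of Paneth cells, was at 260, 25.2, 8.5 and 73.8 CPM in WT.HF and 5.82, 0, 0 and 1.62 CPM in PparA.HF (−5.29 ± 1.1, adjusted p = 0.0081). It was lower in PparA.HF in every run, with the call lost without library 2 or 30 (adjusted p = 0.09 and 0.06). The defensin genes are near-identical copies, so the split of counts among them is uncertain, and the part that the Paneth cell level has in these values was not tested.

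A further set of genes was at the wild-type level in runs 1 and 3 of PparA.HF and several times higher in runs 2 and 4. Rep15 (ENSMUSG00000040121, chromosome 6, 147032584 to 147034245), a partner of the GTPase RAB15 on the list of goblet cell markers, was at 86.2, 97.8, 101 and 108 CPM in WT.HF and 66.9, 936, 72.4 and 1340 CPM in PparA.HF. Over all runs it was not called (2.33 ± 0.66, adjusted p = 0.069 by edgeR and 0.043 by DESeq2), while within runs 2 and 4 it was (3.49, adjusted p = 9.5e-05) and within runs 1 and 3 it stood at −0.42 (adjusted p = 0.9). The difference between the pairs, 3.91, passed its own test (adjusted p = 0.00085). In PparA.Con it was at 84.8, 1090, 68.8 and 448 CPM, high in runs 2 and 4 as well. In PparDA it had means of 967 CPM with the high-fat diet and 764 CPM with the control diet.

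Fgf1 (ENSMUSG00000036585), a fibroblast growth factor with roles in glucose metabolism, had the same pattern. It stood at 4.31, 5.93, 4.25 and 1.42 CPM in WT.HF and at 4.36, 63, 4.83 and 102 CPM in PparA.HF, at 4.54, 97.3, 7.82 and 167 CPM in PparA.Con and at means of 148 and 149 CPM in PparDA. The split by run was thus present on both diets. It was called over all runs (3.23 ± 0.85, adjusted p = 0.047), a call lost without library 2, 10, 14, 18, 25 or 30 (adjusted p = 0.083 to 0.31) and by limma (0.16), and differed between the pairs by 4.33 (adjusted p = 0.025). Itch, a ubiquitin ligase, was at 78.5, 762, 67.6 and 878 CPM in PparA.HF and 76.1 to 93.5 CPM in WT.HF (difference between the pairs 3.38, adjusted p = 0.0006). Ccdc62 and Tmem69 followed, with differences of 2.67 and 2.60 (adjusted p = 0.00085 and 0.0025). Ldb3, a PDZ-LIM protein, was the reverse, at 49.4, 4.84, 37 and 1.62 CPM in PparA.HF and 31.2 to 64.6 CPM in WT.HF (difference −3.72, adjusted p = 0.0025). Oxa1l, the mitochondrial membrane insertase, was called at 1.18 ± 0.31 (adjusted p = 0.049), with 0.71 in runs 1 and 3 and 1.49 in runs 2 and 4, and was lost without library 2, 10, 14, 18, 25 or 30 (adjusted p = 0.089 to 0.3) and by limma (0.084).

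In all, 24 genes (0.409%) differed between the pairs of runs in their response to the genotype, 19 of them higher in runs 2 and 4. On the control diet 6 genes (0.102%) did, and between PparDA.HF and PparD.HF none did by edgeR, with 252 genes (4.29%) at an unadjusted p under 0.05; DESeq2 and limma were not run on this difference. Within runs 1 and 3 alone 41 genes (0.698%) were called and within runs 2 and 4 alone 140 (2.38%, 106 of them higher), of which 31 and 45 were among the 93, and 15 of the 93 were called in both pairs.

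Genes of absorptive enterocytes, the differentiated cells that package dietary fat, followed the pairs of runs in PparA.HF. Of 25 tested enterocyte markers 23 were higher in PparA.HF, against 2993 of all 5872 tested genes. An unadjusted p under 0.05 was reached by 15 of the 25, against 13.5% of all tested genes. None of the 25 was called by edgeR or limma, and their median log2 fold change was 1.19 (0.57 when the 8 libraries were fitted alone). That median was −0.22 in runs 1 and 3 and 1.82 in runs 2 and 4, where 16 were called, against 2.38% of all tested genes. DESeq2 called 3 over all runs, Apoa1 and Muc3 among them. Summed over the list the level was 5320, 6350, 3990 and 5190 CPM in WT.HF and 3820, 11200, 3900 and 7540 CPM in PparA.HF. All 10 tested lipoprotein assembly genes were higher (median 1.23, or 2.04 in the 8 libraries alone, none called by edgeR and Apoa1 by DESeq2; −0.07 in runs 1 and 3 and 2.17 in runs 2 and 4), and their sum was 401 to 559 CPM in WT.HF and 496, 3020, 494 and 1960 CPM in PparA.HF. The early response genes that cell dissociation induces moved in the same runs. They summed to 2770, 4500, 2910 and 4490 CPM in WT.HF and 2760, 1920, 2800 and 2040 CPM in PparA.HF, so that the sums were close in runs 1 and 3 and lower in PparA.HF in runs 2 and 4. Of the 4 tested members none was called over all runs by edgeR (2 at an unadjusted p under 0.05), and the median was 0.03 in runs 1 and 3 and −0.36 in runs 2 and 4, where the chaperone Hspa8 was called (−1.22, adjusted p = 0.0057). Their part in the enterocyte result was not tested. The enterocyte and lipoprotein lists share Apoa1, Apoa4 and Mttp, and whether more enterocytes in the sort or more RNA per cell gave these levels cannot be told apart. Over all runs the enterocyte and lipoprotein medians were 1.04 and 0.95 between PparA.Con and WT.Con. Between PparDA.HF and PparD.HF they were 0.86 and 1.06, and between PparDA.Con and PparD.Con 0.83 and 0.86.

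Apoa1, the apolipoprotein of high-density lipoprotein, was at 33, 47.4, 28.3 and 39.7 CPM in WT.HF and 43.6, 735, 48.3 and 451 CPM in PparA.HF (2.77 ± 0.75, adjusted p = 0.053), and it stood at 40.9, 692, 10.9 and 309 CPM in PparA.Con. In PparDA.HF it was at 225, 107, 138 and 296 CPM, above PparD.HF (30.3, 62.6, 50.9 and 20.1 CPM) in every run. Apoa4, which rises with fat absorption, was at 13.1, 444, 1.61 and 291 CPM in PparA.HF and 8.5 to 32.6 CPM in WT.HF (2.78 ± 0.88, adjusted p = 0.12). Apob, the structural protein of chylomicrons, was at 10.2, 105, 4.83 and 64.7 CPM in PparA.HF and 9.94 to 19.8 CPM in WT.HF. Its difference between the pairs of runs was 3.92 (adjusted p = 0.025), and that of Apoc2, the cofactor of lipoprotein lipase, 3.96 (adjusted p = 0.047). The brush-border disaccharidase Sis was at 7.27, 93.6, 3.22 and 90.5 CPM in PparA.HF and 1.42 to 21.5 CPM in WT.HF (difference 5.51, adjusted p = 0.025). Acsl5, which activates fatty acids for triglyceride synthesis, differed between the pairs by 2.45 (adjusted p = 0.044) and the antimicrobial lectin-family gene Reg1 by 3.78 (adjusted p = 0.03). The selenium carrier Selenop differed by 3.16, the disulfide isomerase P4hb by 1.94 and Phgr1, a gene of mature epithelium, by 2.0 (adjusted p = 0.025, 0.011 and 0.025). Lipid uptake and triglyceride synthesis genes as a list had no call among 12 and a median of 0.22.

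**Figure D5:**
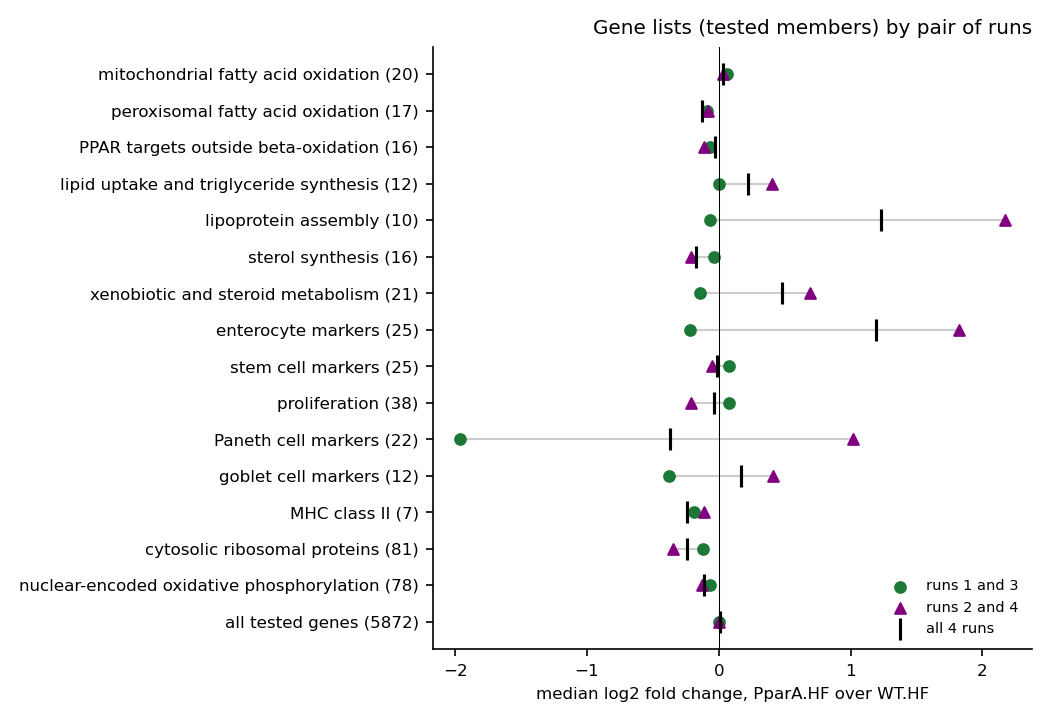
Median log2 fold change of PparA.HF over WT.HF for 15 gene lists and for all tested genes (number tested in brackets), within runs 1 and 3 (circles), within runs 2 and 4 (triangles) and over all runs (bars). Enterocyte and lipoprotein lists lie near 0 in runs 1 and 3 and at 1.82 and 2.17 in runs 2 and 4, Paneth cell markers lie on both sides of 0, and the lists of fatty acid oxidation and stem cells stay near 0 in both pairs.

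No stem cell marker was called by edgeR. Of 25 tested, 5 had an unadjusted p under 0.05, against 13.5% of all tested genes, and limma called 1, Prom1. Of the 25, 12 were higher and 13 lower, with a median of −0.01 (0.08 in runs 1 and 3, −0.05 in runs 2 and 4). Lgr5 differed by 0.15 ± 0.23 (adjusted p = 0.84, interval −0.32 to 0.62) and Olfm4 by −0.22 ± 0.10 (adjusted p = 0.34, interval −0.44 to −0.01). The 9 tested Wnt and Notch genes and the 38 proliferation genes had medians of −0.03 and −0.04 and no call by edgeR (Hmgb2 by DESeq2 and limma). edgeR made no call among 16 sterol synthesis genes (median −0.17), 8 of fatty acid synthesis (−0.04), 27 of the tricarboxylic acid cycle (−0.09), 12 of glycolysis (−0.03) or 14 of the unfolded protein response (−0.12; limma called Creld2). Goblet, enteroendocrine and tuft cell markers had none by edgeR among 12, 7 and 8 (Rep15 by DESeq2; medians 0.17, −0.39 and −0.13). Markers of lymphocytes summed to 0 to 19.4 CPM and those of red blood cells to 0 to 9.92 CPM in the 8 libraries, and neither list had a tested member.

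The comparison was set beside the 3 others that test the Ppara-null allele and share no library with it. With PparA.Con against WT.Con 27 calls were shared in the same direction, 29% of the 93 and 50.9% of that comparison's 53 (0.903% of tested genes). With PparDA.HF against PparD.HF the shared calls were 34, 36.6% of the 93 and 25% of 136 (2.32%), and with PparDA.Con against PparD.Con they were 31, 33.3% of the 93 and 27.2% of 114 (1.94%). In all 4 comparisons 16 genes were called in the same direction, 14 of them higher in the null groups and Apobec3 and Serhl lower. Of the 16, 5 lie on chromosome 15 (Cyb5r3, Apobec3, Serhl, Cmbl and Ywhaz) and 7 are processed pseudogenes, and Tmem116, Defa27, Defa35 and Fgf1 are the rest. Tmem116, a membrane protein of chromosome 5, was at 7.18, 2.96, 1.42 and 2.84 CPM in WT.HF and 43.6, 88.8, 3.22 and 48.5 CPM in PparA.HF (3.59 ± 0.69, adjusted p = 0.004). At the other end, 16 of the 93 had an unadjusted p of 0.05 or more in each of the 3 other comparisons. The effect on the high-fat diet differed from that in Ppard-fl/fl mice for 5 genes (0.0851%): Trmt112, Rps4x, Hint1, Rps26 and Rps26-ps1.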

How the data were processed

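Digital gene expression (3' end) was measured in 32 libraries, 4 in each of 8 groups. The authors deposited expected counts per gene, rounded to whole numbers (from the values), and log2(CPM + 1) values, whose sums return 1e+06 per library. The submitters' processing notes name Salmon 1.1.0, R 4.0.2, edgeR 3.30.2 and mm10, without stating their roles. Groups were read from the column names, which carry a library number and no replicate number of the labels.

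The counts were tested with edgeR 4.0.16 in R 4.3.3 (TMM, filterByExpr with a minimum count of 10 and a total of 15, quasi-likelihood test, Benjamini-Hochberg adjustment over 5872 genes, called under 0.05), with terms for 8 groups and 4 runs over all 32 libraries. CPM use TMM factors. Values after ± without a name are approximate standard errors, the absolute log2 fold change divided by the square root of the test's F statistic. Intervals are 95% and are built from these values. TMM factors were 0.938 to 1.07, tested genes held 97.1 to 97.7% of the counts, and the biological coefficient of variation was 16.8%. Deviations from group means correlated at 0.234, 0.125, 0.256 and 0.142 between PparA.HF and WT.HF libraries of the same run, and 31 of 32 libraries matched their own run best, so runs were kept as pairs. Gene models are GENCODE M21 (54166 of 54418 identifiers matched), and promoter windows are RefSeq's. Pseudogene identity was computed from aligned transcripts.

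Alternatives were DESeq2 1.42.0, limma 3.58.1 on the deposited log2 values, RLE factors, other filters, no block, 8 libraries alone, each pair of runs and each library left out. After seeing the data, the difference between the pairs of runs, a fit without run 1 and a fit without ribosomal genes and pseudogenes were added. Named genes are called genes averaging 10 CPM or more whose groups did not overlap (the 15 most changed in each direction, predicted genes left out), a fixed set of PPAR targets and stem cell genes, up to 4 members per list with the smallest p, and called genes that differ by diet or Ppard background. Chosen after their values were seen were Eif3h, Lgals2, Cmbl, Ywhaz, Tmem116, Churc1, Srprb, Clta, Gdpd3, Rpl5, Rpl14, Rplp0, Rps25 and the genes Itch, Ccdc62, Tmem69, Ldb3, Apob, Sis, Selenop, Phgr1 and P4hb that differ between the pairs of runs. The comparison and its gene lists were chosen with earlier results of these data known. Tests were run on simulated data first. Some results are not reported here. Scripts found no column outside the series.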

Additional observations from a re-analysis of the deposited data

Results flagged for a closer look

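Among 174 groups of 4 libraries checked, 13 held a library whose distance to the nearest other exceeded Dixon's 95% critical value as a share of the group's range, where chance gives about 1 in 20. In WT.HF library 25 was low for Rps4x (5180 CPM) and high for Acadvl (187 CPM). Library 10 was high for Rps13 (1730 CPM) and Ftl1 (1470 CPM) and low for Golga1 (7.41 CPM). Library 2 was high for the pseudogenes Rpl3-ps1 (1.44 CPM, 1 count) and Rps13-ps1 (136 CPM) and low for Itch (76.1 CPM). In PparA.HF library 22 was high for Rps26 (2780 CPM) and Plin2 (236 CPM), library 14 low for Eif3h (191 CPM), and library 6 high for Churc1 (113 CPM) and Rpl3-ps1 (352 CPM).

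The genotype effect on the high-fat diet minus that on the control diet passed edgeR's test for 13 named genes. It was 2.24 for Rpl28, 1.89 for Wapl, 1.76 for Golga1, 1.55 for Deptor, 1.53 for Rps4x, 1.49 for Trmt112, 0.98 for mt-Atp8 and 0.79 for Hint1 on the log2 scale. It was −2.45 for Coq6, −1.22 for Anp32a, −1.03 for Rab25, −1.03 for Chchd2 and −1.02 for Cox6a1. The effect in wild-type minus that in Ppard-fl/fl mice was 1.51 for Rps4x, 1.43 for Trmt112, 0.87 for Rps26-ps1, 0.82 for Rps26 and 0.80 for Hint1.

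The effect in runs 2 and 4 minus that in runs 1 and 3 was 5.51 for Sis, 4.33 for Fgf1, 3.96 for Apoc2, 3.92 for Apob, 3.91 for Rep15, 3.78 for Reg1, 3.38 for Itch and 3.16 for Selenop. It was 2.67 for Ccdc62, 2.60 for Tmem69, 2.45 for Acsl5, 2.0 for Phgr1, 1.94 for P4hb, 1.50 for Ly6e and −3.72 for Ldb3. The pairs of runs differ in Xist and Ddx3y as well, so sex and run cannot be told apart.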

How the results depend on the processing

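Without the replicate block for the run, PparA.HF against WT.HF gave 44 calls (29 higher, 15 lower), PparA.Con against WT.Con 33 and PparDA.Con against PparD.Con 70. The genotype effect on the high-fat minus the control diet (the diet difference) gave 9, and the difference between wild-type and Ppard-fl/fl mice 3. Fitting the 8 libraries alone gave 37 calls (24 higher, 13 lower), and no filter gave 337 (193 higher, 144 lower). Runs 1 and 3 gave 41 calls (25 higher, 16 lower), 23 on the control diet, 67 and 62 for PparDA against PparD on the high-fat and control diet, 9 for the diet difference and 39 for the difference from Ppard-fl/fl mice. Runs 2 and 4 gave 140 (106 higher), 85, 39, 71, 2 and 0, the last with 429 genes at an unadjusted p under 0.05. DESeq2 gave 70 and 13 for the 2 differences. Without run 1 the lower calls were 20, and the other counts 31 on the control diet, 58 for PparDA.HF, 5 and 2 for the differences. Without ribosomal protein genes and pseudogenes they were 48 (26 higher, 22 lower), 32, 9 and 2. The cause of these shifts was not tested, beyond the fewer libraries or genes that these fits hold.

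Leaving out 1 library at a time gave 41 to 132 calls (26 to 93 higher, 15 to 39 lower), 22 to 49 for PparA.Con, 59 to 117 for PparDA.HF, 58 to 110 for PparDA.Con, 8 to 90 for the diet difference and 4 to 12 for the difference from Ppard-fl/fl mice. The list medians then ranged from −0.08 to 0.12 (mitochondrial fatty acid oxidation), −0.13 to 0.12 (PPAR targets), 0.73 to 1.46 (enterocyte), 0.75 to 1.52 (lipoprotein) and −0.28 to −0.20 (ribosomal). The enterocyte and lipoprotein medians were −0.22 and −0.07 in runs 1 and 3 and 0.57 and 2.04 in the 8 libraries alone, and the PPAR target median was 0.08 without run 1.

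RLE factors gave 96 calls, DESeq2 89 (74 among the 93), limma 88 (70 among the 93, 43.2% higher), a robust prior 92 and a mean of 10 CPM 91. None of the 93 changed sign under these, without the block, without the filter or in the 8 libraries alone. Without library 6 3 did, without run 1 5, in runs 1 and 3 2 and in runs 2 and 4 5. Fitting the 8 libraries alone ended the calls of Anp32a, Arl6ip1, Asah1, Chchd2, Churc1, Clta, Cmbl, Golga1, Lsm4, Ly6e, Mrps5, Noc2l, Oxa1l, Rab25, Rpl14, Rpl5, Rplp0, Sdc2, Serhl, Srprb, Tomm22 and Ywhaz (adjusted p = 0.052 to 0.27). Low genes such as Defa27, Fgf1, Gdpd3, H2-Bl, Il18, Lamp1, Mptx2 and Tmem116 did not pass the filter in that fit. The robust prior ended those of Arl6ip1, Clta, Coq6, Fgf1, Ftl1, H2-Bl, Ifitm3, Lsm4, Ly6e, Noc2l, Oxa1l, Rpl14 and Rps15a-ps8 (0.056 to 0.11). Leaving out run 1 ended those of Anp32a, Arl6ip1, Asah1, Chchd2, Clta, Coq6, Eif3h, Ftl1, Gdpd3, Hsd17b13, Ly6e, Mrps5, mt-Co1, Noc2l, Rpl14, Rpl5, Rps15a-ps8, Serhl and Srprb (0.051 to 0.19) and of the 5 genes with counts mostly in that run. Without the filter the adjusted p was 1.1e-08 for Txnip and 9.7e-50 for Rep15, neither called in the filtered fit, and 0.066 for Mrps5. Without ribosomal protein genes and pseudogenes Arl6ip1, Fgf1, Ftl1, Golga1, Ifitm3, Lsm4, Noc2l, Oxa1l and Sdc2 stood at 0.05 to 0.06. Counts of 1 to 5 per library limit what could be detected for Ppara.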
